A study of Mus musculus with 2 samples.

Results

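The 8 mouse genes for troponin T (Tnnt1, Tnnt2, Tnnt3), troponin I (Tnni1, Tnni2, Tnni3) and troponin C (Tnnc1, Tnnc2) were examined in newborn skeletal muscle. They were found by symbol among 43346 genes of the deposited tables, with 82 of the 129984 transcript rows. RNA came from skeletal muscle of B6NCrl mice, a C57BL/6N line, at postnatal day 0, with no treatment or allele named and sex not collected. There were 2 libraries, called replicates 1 and 2. Each was made with SmartSeq, a method that copies and amplifies polyadenylated RNA along its whole length, from 13 pg of total RNA of an organ portion from 1 pup, and spike-in RNAs were added. The libraries have separate biosample entries and the same donor entry, so whether they come from separate animals is not settled. The labels equate this amount with 1 cell, but the material was tissue RNA and not an isolated cell. They also describe each library as total RNA-seq, with a size limit of above 200, although SmartSeq copies polyadenylated RNA. Both libraries belong to 1 group. There is thus no comparison between conditions, and differences between libraries can hold animal, tissue portion and preparation, which cannot be told apart.

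Troponin is the calcium switch of the thin filament of striated muscle. Troponin C binds calcium, troponin I holds back the contact of actin with myosin, and troponin T ties the complex to tropomyosin. Each complex holds a single copy of each subunit, and fast, slow and cardiac muscle use different genes for them. Tnnt3, Tnni2 and Tnnc2 are the fast skeletal forms and Tnnt1 and Tnni1 the slow skeletal forms. Tnnc1 serves slow skeletal and heart muscle, and Tnnt2 and Tnni3 are the cardiac forms of T and I. Tnnt2 is also known in developing skeletal muscle. Troponin T transcripts are spliced in many combinations of short exons near the start of the protein, and Tnnt3 also has a pair of exons, called alpha and beta, of which a transcript normally holds a single one. The exons whose use the data below turn on are shown first.

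These sequences, from GENCODE M21 transcripts on GRCm38 (mm10), show 6 exons of Tnnt3 on the plus strand that were held by part of its RNA. Capitals mark the alternative exon and lower case the 12 bases of the exons joined to it on each side, written 5′ to 3′.
Tnnt3 18-base exon, chr7:142502740-142502757: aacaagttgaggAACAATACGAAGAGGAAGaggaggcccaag
Tnnt3 15-base exon, chr7:142504250-142504264: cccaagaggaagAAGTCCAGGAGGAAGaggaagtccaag
Tnnt3 12-base exon, chr7:142505288-142505299: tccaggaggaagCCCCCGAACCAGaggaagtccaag
Tnnt3 39-base exon, chr7:142507750-142507788: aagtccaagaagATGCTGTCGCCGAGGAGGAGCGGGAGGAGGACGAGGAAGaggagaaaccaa
Tnnt3 alpha exon, chr7:142513665-142513705: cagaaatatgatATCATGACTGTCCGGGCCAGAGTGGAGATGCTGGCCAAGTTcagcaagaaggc
Tnnt3 beta exon, chr7:142514326-142514366: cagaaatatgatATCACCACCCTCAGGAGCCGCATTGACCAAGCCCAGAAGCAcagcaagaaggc
The 39-base exon lies at the place known in this gene as the fetal exon. Of its 12 whole codons, 7 were GAA or GAG, which specify the acidic residue glutamate. The 18-base, 15-base, 12-base and 39-base exons are whole numbers of codons long (6, 5, 4 and 13). The alpha and beta exons are both 41 bases long, carry 2 bases beyond whole codons, join the same neighbours and are identical at 18 of 41 positions.

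The slow and cardiac T genes and Tnnc1 gave 6 further segments. On Tnnt1, which lies on the minus strand, a 33-base exon and 3 bases at an alternative acceptor of the exon after it varied. On Tnnt2, on the plus strand, the 12-base exon and the 30-base exon, known as the embryonic exon of this gene, lie near the start of the protein and the 9-base exon further on. On Tnnc1, on the plus strand, capitals mark 26 bases that the main transcript holds and a second transcript leaves out.
Tnnt1 33-base exon, chr7:4513581-4513613: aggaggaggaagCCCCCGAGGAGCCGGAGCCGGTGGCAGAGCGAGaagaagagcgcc
Tnnt1 acceptor bases, chr7:4512284-4512286: tggcagagcgagAAGaagagcgcccca
Tnnt2 12-base exon, chr1:135842015-135842026: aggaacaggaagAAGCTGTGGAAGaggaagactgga
Tnnt2 30-base exon, chr1:135843785-135843814: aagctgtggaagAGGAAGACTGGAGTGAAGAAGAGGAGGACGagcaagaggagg
Tnnt2 9-base exon, chr1:135850379-135850387: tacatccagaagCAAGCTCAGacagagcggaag
Tnnc1 bases left out, chr14:31211280-31211305: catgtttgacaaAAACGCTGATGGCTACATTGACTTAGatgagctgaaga
The Tnnt1 33-base exon and the Tnnt2 exons are 11, 4, 10 and 3 codons long, and the acceptor bases of Tnnt1 are 1 codon. The 26 bases of Tnnc1 are not a whole number of codons.

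Replicate 1 held 32103374 expected counts, which are estimated reads, and replicate 2 held 38977618, of which 546493 and 1057728 were on troponin genes. The labelled tissue fitted its markers, since 7 of 7 skeletal muscle markers were detected in both libraries, with Acta1, the skeletal actin, at 64537 and 61754 TPM. TPM is the length-adjusted share of transcripts, scaled to 1 fixed sum per library. Detected means a TPM of at least 1 and at least 5 expected counts. Of 10 heart markers, 6 had 0 counts in both libraries, namely Nppa, Nppb, Ryr2, Mybpc3, Nkx2-5 and Tbx20, and the atrial and ventricular myosin Myh6 had 0.18 and 0.1 TPM. The summed heart list was 4477 and 6707 TPM, nearly all from Sln, a calcium pump regulator also found in fetal skeletal muscle, at 4254 and 6369, and from Myl2, the light chain of ventricle and slow muscle, at 223 and 338. The spike-in share was 9.44% and 4.54% of TPM.

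Fast troponin genes held the top of the family in both libraries, and 7 of 8 troponin genes were detected in both, where 4356 of 43346 genes (10%) were. The family's summed share of TPM was 3.26% for replicate 1 and 4.83% for replicate 2 (4.04 ± 1.11%, SD, n = 2). Levels are for the tissue as a whole, in which fewer cells of a type and less RNA per cell cannot be told apart. All means below are given with the SD over n = 2, which with a single group allows no test.

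Among the T genes, Tnnt3 (chromosome 7, 142498836 to 142516009) had 7674 TPM in replicate 1 and 13145 in replicate 2, from 166936 and 361887 expected counts. It ranked 11 and 7 among all genes. Tnnt1 (chromosome 7, 4504570 to 4516382) had 366 and 665 TPM, from 7393 and 17064 counts. Tnnt2 (chromosome 1, 135836354 to 135852260) had 156 and 454 TPM, from 3862 and 13991 counts. Replicate 2 was the higher library for all 3 T genes. Tnnt2, the cardiac form, was the lowest of them in both libraries and yet exceeded every heart marker listed above except Sln and, in replicate 1, Myl2.

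Among the I genes, Tnni2 (chromosome 7, 142441808 to 142444410) had 3768 TPM in replicate 1 and 11719 in replicate 2, from 57997 and 231596 counts. Its rank moved from 28 to 9. Tnni1 (chromosome 1, 135779434 to 135810989) had 847 and 1145 TPM, from 20762 and 35423 counts. Tnni3, the cardiac inhibitory subunit (chromosome 7, 4518305 to 4524229), had 0 counts in both libraries. By counting error alone, a count of 0 allows up to 3 counts, equal to 0.275 TPM in replicate 1 and 0.214 in replicate 2. On that limit, which covers no other source of error, Tnni3 was at least 3087-fold and 5343-fold lower than Tnni1. The posterior mean that the authors deposited for Tnni3 was 0.910 and 0.720 TPM, since that estimate is never exactly 0. Its upper credibility bounds were 1.65 and 1.28 TPM, which lie above the limit of 3 counts and allow a smaller fold difference. The cardiac T gene was thus detected and the cardiac I gene not detected in the same libraries.

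Among the C genes, Tnnc2 (chromosome 2, 164777161 to 164779967) had 19158 TPM in replicate 1 and 20385 in replicate 2, from 280942 and 382791 counts, and ranked 3 in both. Tnnc1 (chromosome 14, 31208312 to 31211729) had 599 and 771 TPM, from 8601 and 14976 counts. Between libraries the C genes differed by 1.06-fold for Tnnc2, the smallest ratio of the 7 detected members, and 1.29-fold for Tnnc1.

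**Figure D1:**
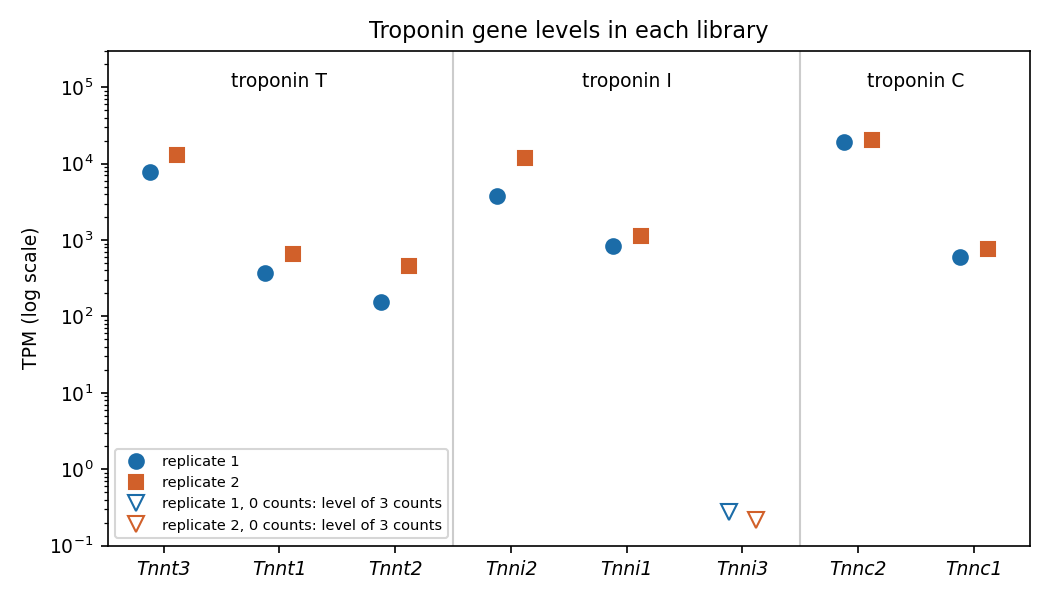
TPM (log scale) of each troponin gene in replicate 1 (circles) and replicate 2 (squares), grouped by subunit, with open triangles for the level of 3 counts where a gene had 0 counts. Tnnc2 is highest in both libraries at 19158 and 20385 TPM, Tnni3 has no counts, and the 7 detected genes stand in the same order in both.

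The order of levels was Tnnc2, Tnnt3, Tnni2, Tnni1, Tnnc1, Tnnt1, Tnnt2 in each library. Of the 6 steps in this order, 3 had a mean log2 ratio of TPM + 1 over 2 SD, which are the steps from Tnnc2 to Tnnt3 (0.98 ± 0.49), from Tnni2 to Tnni1 (2.75 ± 0.85) and from Tnni1 to Tnnc1 (0.54 ± 0.05). The first of these passed by a narrow margin. Tnnt3 and Tnni2 differed by 0.60 ± 0.61, Tnnc1 and Tnnt1 by 0.46 ± 0.35, and Tnnt1 and Tnnt2 by 0.89 ± 0.48, which did not exceed 2 SD.

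Reads could be assigned between these genes with little doubt. The deposited SD of the read count from read assignment was 0 for 7 of 8 genes and 10.1 and 12.7 reads for Tnnc2. The 7 include Tnni3, which had no reads to assign. The longest run of identical bases between the leading transcripts of 2 troponin genes was 22, between Tnni1 and Tnni2. Tnnc2 shares 592 exonic bases with Ube2c on the other strand, a cell cycle gene with 2037 and 2506 counts. Whether strand was used in counting is not given in the sources used here.

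RNA of the subunits was not in equal amounts. Summed over genes, troponin C had 19757 TPM in replicate 1 and 21155 in replicate 2, troponin T had 8196 and 14264, and troponin I had 4615 and 12864. The order C, T, I held in both libraries. Troponin C exceeded T by 2.41-fold in replicate 1 and 1.48-fold in replicate 2, and exceeded I by 4.28-fold and 1.64-fold. T exceeded I by 1.78-fold and 1.11-fold. Replicate 2 was thus nearer to equal amounts than replicate 1, with higher T and I on the TPM scale and C slightly higher.

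The subunits' shares of the troponin total differed between libraries as follows. Troponin C made up 60.7% of troponin TPM in replicate 1 and 43.8% in replicate 2 (52.2 ± 11.9%). Troponin I made up 14.2% and 26.6% (20.4 ± 8.82%), and troponin T 25.2% and 29.5% (27.4 ± 3.09%). From expected counts, which are not adjusted for transcript length, C exceeded T by only 1.62-fold and 1.01-fold, since Tnnt3 transcripts are longer, at a mean of 991 and 980 bases against 700 for Tnnc2. The slow genes were ordered otherwise than the fast genes. Tnni1 was the highest slow member, with Tnnc1 over Tnni1 at 0.707 and 0.673 and Tnnt1 over Tnni1 at 0.432 and 0.580, whereas Tnnc2 over Tnni2 was 5.08 and 1.74.

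**Figure D2:**
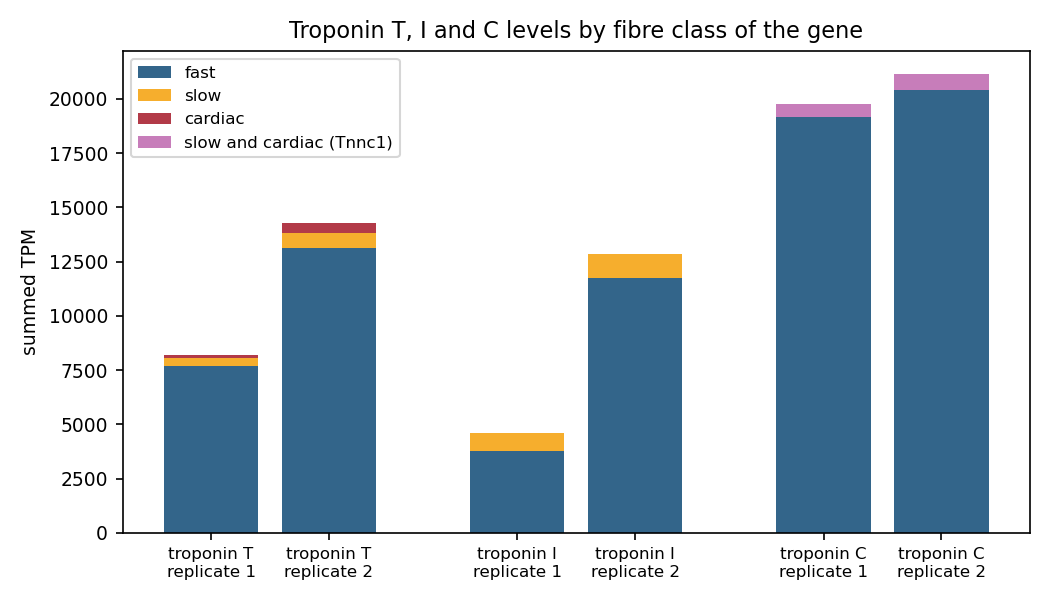
Summed TPM of the troponin T, I and C genes in each library, stacked by fibre class of the gene. Troponin C is tallest in both libraries, at 19757 and 21155, and fast genes fill most of every bar.

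Fast genes held 94.0% of troponin TPM in replicate 1 and 93.7% in replicate 2 (93.8 ± 0.169%). Tnnt1 and Tnni1 together held 3.73% and 3.75%, Tnnc1 held 1.84% and 1.60%, and the cardiac genes, here Tnnt2 alone, held 0.480% and 0.940%. The fast share differed by subunit. It was 97.0% and 96.4% within troponin C, 93.6% and 92.2% within troponin T, and 81.6% and 91.1% within troponin I. Slow Tnni1 was therefore 18.4% of troponin I in replicate 1 and 8.90% in replicate 2, while slow Tnnt1 was 4.47% and 4.66% of troponin T. Tnnt2 was 1.91% and 3.18% of troponin T. The near-equal overall fast share joined a lower fast share of I in replicate 1 with a larger share of C there.

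On the TPM scale, the listed adult fast and slow fibre markers mostly moved in opposite directions between libraries. All 5 adult fast fibre markers were higher in replicate 2, as were 52.0% of 10002 genes with at least 5 counts in a library. Among the 5 were Actn3, the fast Z-disc actinin, at 221 and 509 TPM and the fast myosin Myh4 at 20.7 and 41.9. Myh2 was not detected, at 0.21 and 0.35 TPM. The summed level of the 5 was 281 in replicate 1 and 678 in replicate 2. Slow fibre markers were lower there in 4 of 5 genes, with slow myosin Myh7 at 142 and 57.2, the slow light chain Myl3 at 446 and 200 and Casq2 at 1729 and 1314, summing to 2350 and 1596. Myh7b had 0 counts in both. Centred on the spike-ins, Casq2 and Atp2a2 turned to higher in replicate 2 and Myh7 and Myl3 stayed lower. Other genes of slow muscle were higher in replicate 2. These were the slow troponins Tnnt1 and Tnni1, Tnnc1 at 599 and 771, the light chain Myl2 at 223 and 338 and the slow tropomyosin Tpm3 at 506 and 721. Of 5 smooth muscle markers 5 were higher in replicate 2, with a summed level of 375 and 671 TPM. They were led by the smooth muscle actin Acta2 at 319 and 487. In replicate 1, Myh11 and Cnn1 had 0 counts and Tagln had 1. The part of fibre type and smooth muscle in the difference of the I share was not tested.

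All 7 detected troponin genes had a higher TPM in replicate 2, where 52.0% of 10002 genes with at least 5 counts in a library did, but Tnnc2 turned to -0.02 on the log2 scale when centred on the median of the 451 genes of like level described next. The other 6 stayed above 0 under that centring and when centred on the spike-ins or scaled by TMM. Among the 451 genes with a mean level at or above that of Tnnt2, 55.4% were higher in replicate 2. Past 2-fold on the scale of TPM + 1 were 2 of the 7, Tnni2 at 3.11-fold and Tnnt2 at 2.91-fold. Of all genes tested, 64.0% were past 2-fold in either direction and 34.4% past 2-fold toward replicate 2. Of the 451 genes of like level, 23.1% were past 2-fold in either direction and 13.1% toward replicate 2, and of 114 genes with at least 1000 TPM, 15.8%. The count of 2 of 7 is close to the share in either direction among genes of like level. Both of the 2 were toward replicate 2, where the share was the lower 13.1%, with no test. Tnnt1 at 1.81-fold, Tnnt3 at 1.71-fold and Tnni1 at 1.35-fold stayed within 2-fold. The median log2 ratio was 0.78 for the 7 genes, 0.11 for the 451 genes and 0.09 for all 10002. Among spike-in RNAs 65.7% of 35 were past 2-fold, and relative to the median of 25 well-counted spike-ins, which was -0.98, all 7 troponin genes were past 2-fold higher in replicate 2. On that scale 51.7% of all genes tested and 55.4% of the 451 genes of like level were past 2-fold higher, and 72.1% of all genes were past 2-fold in either direction.

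**Figure D3:**
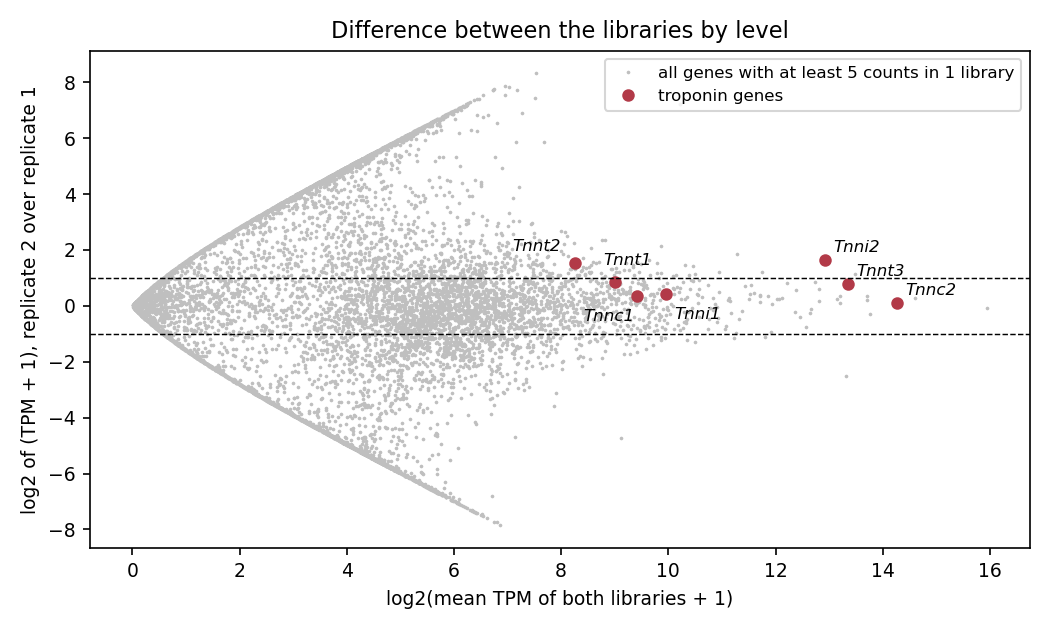
Log2 ratio of TPM + 1 between replicate 2 and replicate 1 against log2 of the mean TPM + 1, for 10002 genes (grey) and the 7 detected troponin genes (red), with dashed lines at 2-fold. All troponin genes lie above 0, Tnni2 and Tnnt2 lie above the upper line, and lower genes spread more widely.

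Partners of troponin on the thin filament were found nearly in full. Of 12 listed genes 11 were detected in both libraries, with a median log2 ratio of 0.50 and 10 of 12 higher in replicate 2. The share higher in replicate 2 was 52.0% of the 10002 genes tested and 55.4% of the 451 genes at or above the level of Tnnt2. Tpm1, the tropomyosin of fast muscle and heart, had 8304 and 10566 TPM, Tpm2 had 4851 and 8725, and the slow tropomyosin Tpm3 had 506 and 721. Actc1, the cardiac actin that fetal skeletal muscle also uses, had 5671 and 8721. Nebulin (Neb), which spans the thin filament, had 1648 and 2305, and the filament end caps Tmod1 and Tmod4 had 178 and 243 and 124 and 222. Lmod3, a starter of filament growth, had 0 counts in replicate 1 and 4695 in replicate 2. Acta1, at 0.957-fold, and Lmod2, at 0.892-fold, were the 2 genes lower in replicate 2, and both turned to higher when centred on the spike-ins. The directions of the tropomyosin genes matched those of the troponin genes in these 2 libraries, with no test.

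Transcripts of Tnnt3 were the most mixed. An effective number of transcripts, the inverse of the summed squared shares, was 6.37 in replicate 1 and 6.09 in replicate 2. This was rank 1 of 308 genes with at least 2 transcripts, at least 100 counts in both libraries and a level at or above that of Tnnt2, whose median was 1.27. Tnnt1 ranked 9 at 2.94 and 4.36, Tnnt2 ranked 29 at 2.25 and 3.25, and the I and C genes lay between 1.00 and 1.59. Tnnt3 also has 26 annotated transcripts, against 13 for Tnnt1, 15 for Tnnt2 and 2 for Tnnc2, and the effective number cannot exceed the number annotated.

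For Tnnt3, 7 transcripts reached 5% of the gene's TPM in at least 1 library. The leading form, ENSMUST00000105954, held 25.4% in replicate 1 and 26.4% in replicate 2. It has the 18-base, 39-base and beta exons printed above and lacks the 15-base, 12-base and alpha exons. ENSMUST00000078497 adds the 15-base exon to it and held 22.98% and 22.90%. ENSMUST00000105955, with the 15-base and without the 39-base exon, held 9.09% and 12.4%. ENSMUST00000105944, which lacks both, held 7.02% and 11.2%. All 4 carry the beta exon, and the first 2 hardly moved between libraries.

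The alpha exon was carried by 2 of the 7. ENSMUST00000105958, which holds each of the short exons and the alpha exon, was at 10.8% and 8.29%. ENSMUST00000105948, with neither the 15-base, the 12-base nor the 39-base exon, was at 9.47% and 5.19%. The remaining form, ENSMUST00000105952, with the 15-base, 12-base and beta exons and without the 39-base exon, had 9297 expected counts in replicate 1 (5.28%) and 0 in replicate 2. Its deposited credibility interval in replicate 2 reached from near 0 to 79.9 TPM, and in replicate 1 from 277 to 419 TPM. ENSMUST00000105947, just under the 5% limit, holds the same short exons with the alpha in place of the beta exon. It went the other way, from 14.8 expected counts in replicate 1 (0.0116%) to 13479 in replicate 2 (4.82%). Assignment was less sure for the short models, with an SD of 1015 reads on 8593 for ENSMUST00000105944 in replicate 1. Short reads do not link the alpha and beta exons with the exons near the start, so these combinations are those of the annotated transcripts.

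**Figure D4:**
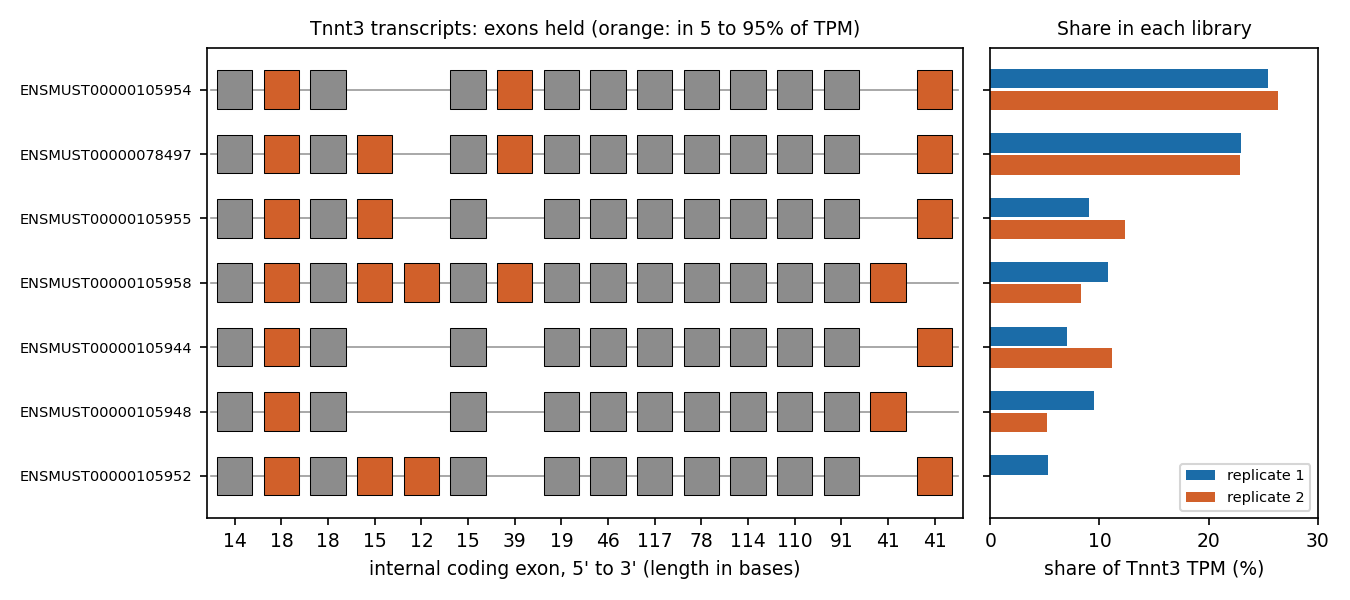
Left, internal coding exons in order from 5′ to 3′, labelled by length in bases, held by each Tnnt3 transcript with at least 5% of the gene's TPM, in orange where the exon was in 5 to 95% of TPM and in grey otherwise. Right, the share of Tnnt3 TPM of each transcript in both libraries, led by ENSMUST00000105954 at 25.4% and 26.4%.

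Exon by exon, Tnnt3 gave nearly the same picture in both libraries, although its level differed 1.71-fold. The share of an exon is the TPM of transcripts that hold it over that of transcripts that span its place. The 39-base exon was in 63.0% of Tnnt3 RNA in replicate 1 and 62.7% in replicate 2 (62.8 ± 0.228%). The 15-base exon was in 52.8% and 53.6% (53.2 ± 0.574%) and the 18-base exon in 92.3% and 92.9%. The 12-base exon was in 17.5% and 14.3% (15.9 ± 2.28%). The beta exon was in 78.6% and 81.1% (79.8 ± 1.80%) and the alpha exon in 21.5% and 18.9% (20.2 ± 1.85%), so beta exceeded alpha in both. The other 5 alternative exons of Tnnt3 were in at least 98.2% or at most 0.02% of its RNA. The mean coding length over protein-coding forms was 781 bases in each library.

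Tnnt2 varied more between libraries. Its 30-base exon was in 43.0% of Tnnt2 RNA in replicate 1 and 58.1% in replicate 2 (50.6 ± 10.7%), and its 12-base exon in 42.6% and 58.0% (50.3 ± 10.9%). The 9-base exon went the other way, at 57.7% and 44.9% (51.3 ± 9.09%). Every annotated form that spans and lacks the 9-base exon is counted as holding both the 12-base and the 30-base exon. Short reads do not link the 9-base exon with those exons, so the opposite direction depends on the annotated combinations. A pair of transcripts held most of the gene's RNA. ENSMUST00000189355, with the 9-base exon and neither of the others, held 57.0% and 32.8%. ENSMUST00000179863, with the 12-base and 30-base exons and without the 9-base exon, held 33.8% and 43.2%. ENSMUST00000178204 held 7.53% and 9.07%. It has a 34-base form of the 30-base exon. In place of the 12-base exon it has other exons of 9 bases that overlap that exon only in part. It was counted as holding both under the rule of at least 0.5 of an exon's bases. With only transcripts that hold the whole 12-base exon, the share of that exon was 42.0 ± 9.79%. The leading transcript thus changed between libraries, in a gene with 3862 reads in replicate 1. An 11-base exon, in 92.1% and 90.6%, was the other alternative exon of Tnnt2 in 5 to 95% of its RNA.

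Tnnt1 also changed its leading transcript. Its 33-base exon was in 60.5% of Tnnt1 RNA in replicate 1 and 53.4% in replicate 2 (56.9 ± 5.01%). The following exon was used in a form of 22 bases, with the 3 acceptor bases printed above, in 55.3% and 34.2% of RNA with that exon, and in a form of 19 bases in 44.5% and 62.5%. ENSMUST00000108587, with the 33-base exon and the 22-base form, held 46.8% and 22.5%. ENSMUST00000163710, without the 33-base exon and with the 19-base form, held 31.4% and 31.9%. ENSMUST00000071798, with the 33-base exon and the 19-base form, had 0 counts in replicate 1 and 4725 in replicate 2 (24.5%). ENSMUST00000163538 held 12.9% and 5.30% and ENSMUST00000166268 held 7.89% and 11.3%, and both are shortened models that end before the last coding exon. The use of the acceptor bases differed more between libraries than that of the 33-base exon.

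**Figure D5:**
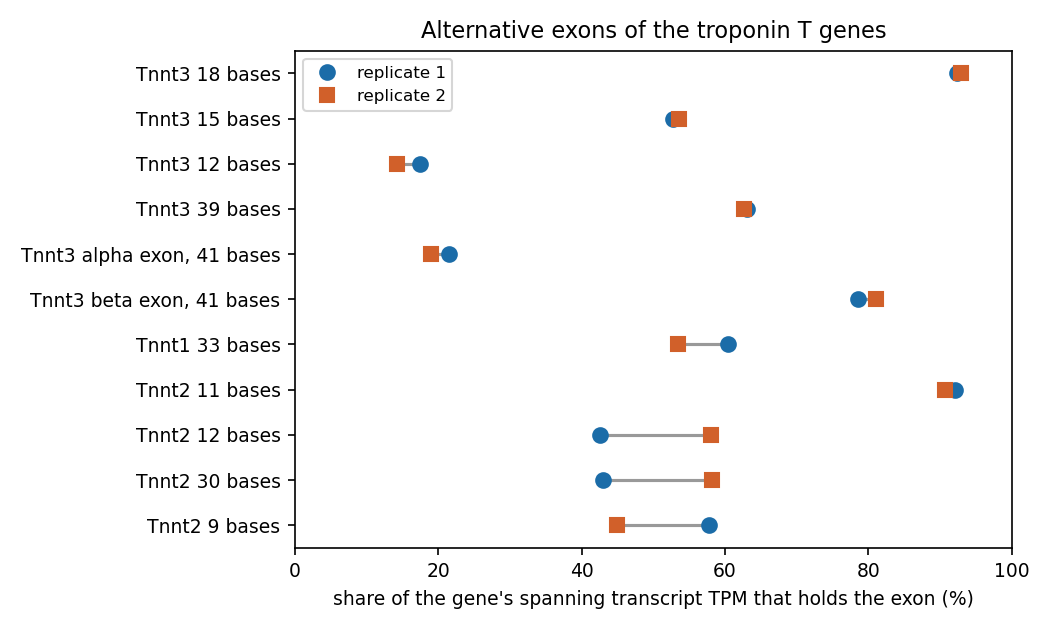
Share of each troponin T gene's spanning transcript TPM that holds an alternative exon, in percent, for replicate 1 (circles) and replicate 2 (squares), for exons in 5 to 95% of RNA. Points of the Tnnt3 exons lie close together, as for the 39-base exon at 63.0% and 62.7%, and those of the Tnnt2 30-base exon lie apart, at 43.0% and 58.1%.

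Troponin I and C genes had a single main transcript. For Tnnc2, ENSMUST00000103095 held 99.995% and 99.989%. For Tnni1, ENSMUST00000152208 held 99.4% and 95.4%. For Tnni2, ENSMUST00000105971 held 91.4% and 96.1%, and ENSMUST00000149529, which has the same coding length of 546 bases and another first exon, held 6.21% and 2.74%. Tnnc1 was the exception among these. ENSMUST00000169169 held 75.54% in replicate 1 and 99.97% in replicate 2, and ENSMUST00000170268, a form annotated for nonsense-mediated decay that leaves out the 26 bases printed above, had 1734 reads in replicate 1 (24.5%) and 0 in replicate 2. The deposited interval for that form was 131 to 156 TPM in replicate 1 and reached 1.06 TPM in replicate 2. These intervals, which cover read assignment and counting alone, did not overlap. Neither did those of the whole Tnnc2 gene, at 18674 to 18815 and 19973 to 20102 TPM, which differed by only 1.06-fold. Intervals that do not overlap thus do not set this form apart.

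Of the 7 detected genes, 5 had the same leading transcript in both libraries, namely Tnnt3, Tnni2, Tnni1, Tnnc2 and Tnnc1. This was so for 66.6% of 2932 genes with at least 2 transcripts and at least 100 counts in both libraries, and for 91.9% of the 308 of like level. The 5 of 7 is near the first share and below the second, with no test. Summed over transcripts, 15.2% of Tnnt3 RNA, 32.3% of Tnnt1 RNA, 24.9% of Tnnt2 RNA and 24.5% of Tnnc1 RNA would have to be moved to other forms to match the libraries, against a median of 4.81% for the 308 genes. For Tnni2 it was 4.83%, for Tnni1 4.15% and for Tnnc2 0.00589%.

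Genes known to act on splicing in muscle were measured beside these exons. Of 13 listed, 11 were detected in both libraries. Mbnl1, which favours adult forms of troponin T exons, had 85.8 and 81.2 TPM, and its relative Mbnl2 had 8.97 and 57.1. Celf1, which acts against it on the Tnnt2 embryonic exon, had 1 read in replicate 1 and 2173 in replicate 2, and Celf2 had 36.5 and 5.76 TPM. Rbfox1 had 175 and 27.4 TPM, the repressor Ptbp1 81.3 and 33.2, and Srsf3 143 and 292. Ptbp2 had 1.04 and 5.68 TPM, Rbfox2 21.7 and 47.0, and Rbm24 10.7 and 26.6. Rbm38 had 132 and 60.3 TPM, and Qk 34.0 and 31.9. Celf1 and Rbm20 were the genes not detected in replicate 1. Their part in the exon shares was not tested.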

How the data were processed

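RNA was measured in 2 libraries of 1 group. Expected counts (estimated reads, not normalized) and TPM (scaled by the authors to a fixed sum per file) were deposited per gene and per transcript. The file headers match RSEM output, and further deposited columns used were posterior mean TPM, its credibility bounds, the SD of the read count and lengths in bases. The genome was mm10 and the annotation M4, per the notes deposited beside the tables. The aligner is not given in the sources used here. Expected counts were not rounded, except for TMM factors from edgeR 4.0.16 in R 4.3.3, used only as an alternative scaling.

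Symbols, exons and sequences came from GENCODE M21 on GRCm38, matched by identifier without version. Of the 82 transcript rows, 80 had an annotated length equal to the file's, and the other 2, of Tnni3, had 0 TPM. Log values used log2(TPM + 1). A transcript was taken to hold an exon with a share of at least 0.5 of its bases. Internal coding exons that some but not all spanning transcripts hold were called alternative. No test was possible with a single group, and a difference was set against 2 SD as a description. The fold and exon calculations were tested on simulated data, which checks the code and does not copy the spread between these libraries. Libraries had 32103374 and 38977618 expected counts without molecular identifiers, so the limit of 3 counts for a 0 covers counting error only. All 8 genes, listed partners and transcripts with at least 5% of a gene's TPM were to be named. Members and lists were chosen with earlier results of these data known. Other steps used Python 3.11.15, numpy 2.4.6 and pandas 2.3.3.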

Additional observations from a re-analysis of the deposited data

How the results depend on the processing

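Alternatives were posterior mean TPM, expected counts, another pseudocount, other scalings and filters, protein-coding transcripts only, and leaving out each library. Over 42 results, 17 of 126 values under alternatives other than leaving out a library moved by more than 1 SD or, for a count of genes, by more than 1.5 times. Leaving out either of 2 libraries cannot move a mean by 1 SD, and most results are percentages that have no sign, so neither bears on stability. No paired analysis was possible because there is a single group. With expected counts the T share of troponin was 34.9%, the share of Tnnt1 in troponin T 4.25%, the fast share 92.4%, the slow share 5.06%, the Tnnc1 share 1.49% and the share of all reads 2.21%. The log2 ratio of Tnnt1 to Tnnt3 was -4.45. The leading Tnnt3 transcript was at 27.9% and that of Tnnc2 at 99.9974%. Tnnt3 exon shares were 56.3% for the 15-base, 67.5% for the 39-base, 18.3% for the alpha and 81.7% for the beta exon. With protein-coding transcripts only, the 39-base exon was at 62.6% and the leading Tnnc2 transcript at 100%. Troponin genes past 2-fold numbered 7 when centred on the spike-ins, where 72.1% of all genes were past 2-fold, and 0 at a threshold of 4-fold, which 46.1% of all genes passed. With TMM scaling and when centred on the median gene the number was 2, again Tnni2 and Tnnt2. Centring on genes of like level and counting only transcripts with a whole exon were chosen after seeing the data. The first turned the sign of Tnnc2. The second lowered the Tnnt2 12-base exon from 50.3% to 42.0%, within 1 SD only because that SD was 10.9. It left the other exon shares unchanged.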

Other observations

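Genes between and beside the troponin genes were measured as well. Tnni2 and Tnnt3 lie 54425 bases apart on chromosome 7 with Lsp1, a leukocyte gene, between them, and Lsp1 had 16.9 TPM in replicate 1 and 165 in replicate 2, against 3768 and 11719 for Tnni2. Tnni1 and Tnnt2 lie 25364 bases apart on chromosome 1 with Lad1 between them, and Lad1 had 0 counts in both libraries. Tnnt1 and Tnni3 lie only 1922 bases apart on chromosome 7 with no gene between them, and here Tnnt1 had 7393 and 17064 counts and Tnni3 had 0. Of the 9 neighbours listed, 4 had 0 counts in both libraries (Syt8, Lad1, Dnaaf3 and Acot8) and 2 were detected in both (Lsp1 and Nisch). Nisch, which overlaps Tnnc1 on the other strand without shared exonic bases, had 115 and 103 TPM.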
